A study of Mus musculus with 8 samples.

Results

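TGF-beta ligands, their receptors and the proteins that hold or block them were followed in mammary tumours of MMTV-PyVT/HdhQ111/Q111 and MMTV-PyVT/HdhQ7/Q7 mice. The 10 genes were the ligands Tgfb1, Tgfb2, Tgfb3 and Inhba, the latent binding proteins Ltbp1 and Ltbp2, the receptors Tgfbr1, Tgfbr2 and Tgfbr3, and the inhibitor Smad7. They were chosen by gene symbol, with earlier results of these data known. They were 10 of the 14860 genes with a probe set annotated to a single symbol, among 23332 probe sets in all. Each of the 10 had exactly 1 such probe set. RNA of 4 HdhQ111/Q111 and 4 HdhQ7/Q7 tumours was hybridised to Affymetrix Mouse Exon 1.0 ST arrays, 1 array per tumour, to ask which transcripts differ when the huntingtin of a PyVT tumour carries a long polyglutamine (polyQ) stretch.

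HdhQ111/Q111 mice carried huntingtin with 111 glutamines on both alleles, and HdhQ7/Q7 mice carried it with 7 glutamines on both. All mice were of the FVB/CD1 background and carried the polyoma middle T oncogene (PyVT) under the mouse mammary tumour virus promoter, which drives the oncogene in mammary epithelium, and no tumour was treated. Per the study, tumours were collected at a fixed time after detection, and tumours appeared earlier in HdhQ111/Q111 mice. The age of the mouse and the genotype therefore cannot be told apart. Whole pieces of tumour were used, in which fewer cells of a type and less RNA per cell cannot be told apart. Whether each tumour came from its own mouse is not stated, so a p-value here refers to the spread from tumour to tumour.

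TGF-beta ligands are secreted as dimers that remain bound to their own cut propeptide, and latent TGF-beta binding proteins tether this silent complex to the matrix. Once released, the ligand binds the type II receptor, which phosphorylates the type I receptor, and this in turn phosphorylates SMAD2 and SMAD3, which enter the nucleus with SMAD4. In the mammary gland the pathway restrains growth of normal epithelium, whereas in tumours it is also known for driving epithelial-to-mesenchymal transition and fibroblast activation.

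The values are log2 signals as deposited, so a difference of 1 is a 2-fold difference. Array medians lay between 7.58 and 7.74 and were higher by 0.07 on average in HdhQ111/Q111 tumours. Pearson correlations between arrays, across probe sets, ran from 0.984 to 0.990. The mean of 7 luminal epithelial markers was 10.81 to 10.98 in HdhQ111/Q111 tumours and 10.60 to 11.27 in HdhQ7/Q7 tumours, so the mammary epithelial label held in all arrays. The mean of 9 fibroblast markers was 7.79 to 8.42 in HdhQ111/Q111 tumours and 7.31 to 7.72 in HdhQ7/Q7 tumours, without overlap, and all 9 had a higher mean in HdhQ111/Q111 tumours. The mean of 7 macrophage markers also did not overlap, at 8.39 to 8.81 in HdhQ111/Q111 and 8.19 to 8.37 in HdhQ7/Q7 tumours. Nor did that of 6 T cell markers, at 6.15 to 6.32 in HdhQ111/Q111 and 6.33 to 6.52 in HdhQ7/Q7 tumours, a narrow gap. Of these T cell markers, 4 had a lower and 2 a higher mean in HdhQ111/Q111 tumours.

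None of the 10 genes passed the study's thresholds, a 1.5-fold difference or more together with a limma p, before adjustment, of 0.05 or less, which 1.36% of all probe sets passed. None had an adjusted p under 0.05, as 0.0129% of all probe sets had, and in none were the signals of the genotypes free of overlap, as they were in 4.43% of all probe sets. At an unadjusted p of at most 0.05, 1 of the 10 was found with limma, Tgfbr3, beside 7.88% of all probe sets, and 0 of the 10 with the methods' t-test. At these shares of all probe sets, counts of 0 or 1 in 10 genes are near the background and are no result about the genes as a group. The median log2 fold change of the 10 genes was 0.048, HdhQ111/Q111 minus HdhQ7/Q7, and that of all probe sets was 0.021. It was positive for 7 genes and negative for 3, but for 4 and 6 with each array centred on its median and for 6 and 4 after quantile normalization. Over all probe sets as deposited, 13165 log2 fold changes were positive and 10167 were negative. The median size of the difference, whatever its sign, was 0.088 on the log2 scale over the 10 genes and 0.093 over all probe sets.

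**Figure D1:**
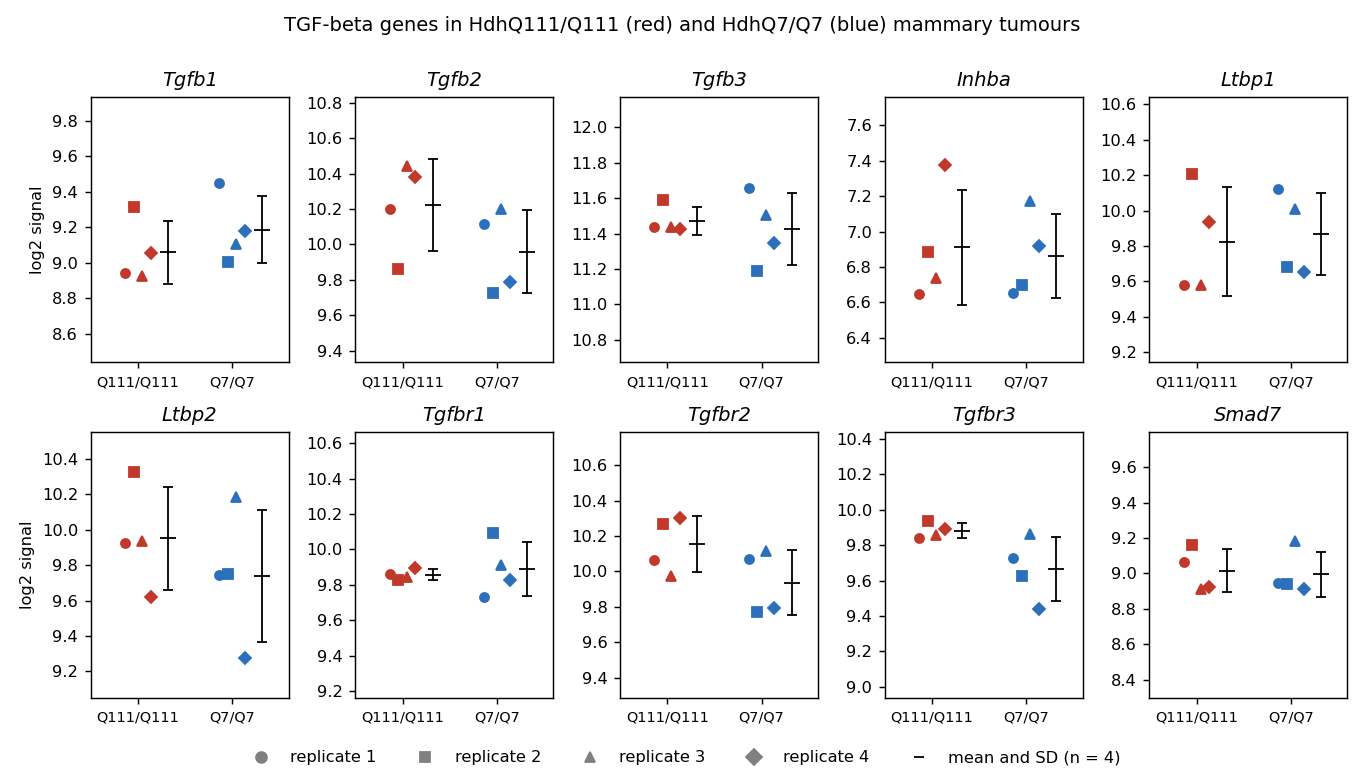
Log2 signal of the 10 TGF-beta genes (y axis, each panel spanning the same range of log2 units around its own centre) in 4 HdhQ111/Q111 tumours (left, red) and 4 HdhQ7/Q7 tumours (right, blue). Marker shapes give the replicate number and the black bars the mean and SD; the genotypes overlap in every panel, and the 4 HdhQ111/Q111 tumours lie close together for Tgfbr1 and Tgfbr3.

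Among the ligands, Tgfb1, the isoform made by most cell types and abundant in immune cells and platelets, had signals of 8.94, 9.31, 8.93 and 9.05 in HdhQ111/Q111 tumours 1 to 4, against 9.45, 9.01, 9.11 and 9.18 in HdhQ7/Q7 tumours 1 to 4. The lowest pair of values belonged to HdhQ111/Q111 tumours and the highest to an HdhQ7/Q7 tumour, but HdhQ111/Q111 tumour 2 lay above 3 of the 4 HdhQ7/Q7 tumours. The mean was 9.06 ± 0.18 in HdhQ111/Q111 and 9.19 ± 0.19 in HdhQ7/Q7 tumours (SD, n = 4 each), a log2 fold change of -0.13 with a standard error of 0.12 and a limma adjusted p of 0.805. Its sign was kept in every alternative run, with values of -0.21 to -0.040.

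Tgfb2, the isoform needed for development of the heart and skeleton and often made by mesenchyme, had the largest difference of the 10. Its signals were 10.20, 9.86, 10.44 and 10.38 in HdhQ111/Q111 tumours, against 10.11, 9.73, 10.20 and 9.79 in HdhQ7/Q7 tumours. The 2 highest values were in HdhQ111/Q111 tumours 3 and 4, whereas HdhQ111/Q111 tumours 1 and 2 lay within the range of the HdhQ7/Q7 tumours. The mean was 10.22 ± 0.26 in HdhQ111/Q111 and 9.96 ± 0.23 in HdhQ7/Q7 tumours (SD, n = 4 each), which gave a log2 fold change of 0.26 with a standard error of 0.16, a limma adjusted p of 0.701 and an exact permutation p of 0.200. Without HdhQ111/Q111 replicate 2 the log2 fold change was 0.38 with an unadjusted limma p of 0.0258 and an adjusted p of 0.516.

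Tgfb3, the isoform linked with palate closure and with mammary involution, had signals of 11.43, 11.59, 11.44 and 11.42 in HdhQ111/Q111 tumours, against 11.66, 11.19, 11.51 and 11.35 in HdhQ7/Q7 tumours. All 4 HdhQ111/Q111 values fell inside the range of the HdhQ7/Q7 values. This gave a log2 fold change of 0.048 with a standard error of 0.11 (limma adjusted p = 0.926), which became -0.020 when each array was centred and -0.031 without HdhQ7/Q7 replicate 2.

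Inhba encodes the chain of activin A, which signals through the same SMADs from activin receptors. Its signals were 6.65, 6.88, 6.74 and 7.37 in HdhQ111/Q111 tumours, against 6.65, 6.70, 7.17 and 6.92 in HdhQ7/Q7 tumours, and its mean lay just above the limit of 6.88 under which the dimmest 40% of probe sets fell. A single HdhQ111/Q111 tumour, replicate 4, held the highest value. Inhba thus had a log2 fold change of 0.049 with a standard error of 0.18 (limma adjusted p = 0.961), and of -0.10 without HdhQ111/Q111 replicate 4, -0.020 without HdhQ7/Q7 replicate 1, -0.0044 without HdhQ7/Q7 replicate 2 and -0.019 with arrays centred.

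The sequence upstream of the start sites of Tgfb1 and Tgfb2 is shown because their promoters differ in kind. Neither ligand's genotype difference passed the thresholds, and a part of these sequences in it was not tested. Windows of 250 bases before the start came from RefSeq (GRCm38.p6), which held 9 windows for 7 of the 10 genes. For Tgfb1, at chr7:25686752-25687001 on the plus strand, capitals mark GC boxes (GGGCGG on either strand), and for Tgfb2, at chr1:186705990-186706239 on the minus strand, they mark a TATA box (TATAAA on the gene's strand) and SMAD boxes (CAGAC on either strand).
Tgfb1: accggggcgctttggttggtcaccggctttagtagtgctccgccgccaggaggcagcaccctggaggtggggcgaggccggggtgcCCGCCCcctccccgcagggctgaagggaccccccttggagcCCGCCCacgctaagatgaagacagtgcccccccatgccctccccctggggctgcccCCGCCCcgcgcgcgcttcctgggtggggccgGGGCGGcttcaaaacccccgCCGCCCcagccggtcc
Tgfb2: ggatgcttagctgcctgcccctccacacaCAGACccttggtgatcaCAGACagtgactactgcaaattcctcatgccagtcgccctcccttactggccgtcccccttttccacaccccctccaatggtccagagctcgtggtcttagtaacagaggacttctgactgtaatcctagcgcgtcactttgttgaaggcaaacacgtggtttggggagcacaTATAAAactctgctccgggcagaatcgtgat
The Tgfb1 window was 75.2% G and C, higher than 96.1% of 32851 such windows, and held 5 GC boxes, which were present in 32.7% of all windows, with neither TATAAA nor CAGAC. The Tgfb2 window was 53.6% G and C and held no GC box. Its TATA box began 31 bases before the start, a motif found in 7.59% of all windows. Its pair of SMAD boxes began 221 and 204 bases before the start, and 42.2% of all windows held at least 1 such match. The motifs marked in a window do not overlap.

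Of the binding proteins, Ltbp1 bridges the latent complex to fibronectin and fibrillin. Its signals were 9.58, 10.21, 9.58 and 9.93 in HdhQ111/Q111 tumours, against 10.12, 9.68, 10.01 and 9.66 in HdhQ7/Q7 tumours. In each genotype a pair of tumours was high and a pair was low. Between genotypes the log2 fold change was -0.042 with a standard error of 0.17 (limma adjusted p = 0.966). It ran from -0.17 to 0.042 with 1 tumour left out, and its sign turned without HdhQ111/Q111 replicate 1 (0.040), HdhQ111/Q111 replicate 3 (0.040), HdhQ7/Q7 replicate 1 (0.042) or HdhQ7/Q7 replicate 3 (0.0041).

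The first of the 2 upstream windows of Ltbp1, at chr17:75005279-75005528 on the plus strand of GRCm38.p6, is shown because Ltbp1 and Tgfb1 were high in the same tumours, as described further on. A part of the sequence in that relation was not tested. Capitals mark a cAMP response element (TGACGTCA, which reads the same on both strands) and the SMAD box next to it.
Ltbp1: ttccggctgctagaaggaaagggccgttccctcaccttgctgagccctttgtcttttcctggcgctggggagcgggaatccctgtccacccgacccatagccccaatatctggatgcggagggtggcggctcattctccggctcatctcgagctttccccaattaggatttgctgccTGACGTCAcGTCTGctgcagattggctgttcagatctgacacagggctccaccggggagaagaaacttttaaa
The cAMP response element began 73 bases and the SMAD box 64 bases before the start, with 1 base between them. TGACGTCA was present in 1.55% of the 32851 windows and in none of the other 8 windows of these genes. Unlike the Tgfb1 window, this one held no GC box, and its G and C share was 56.8%.

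Ltbp2 binds fibrillin rather than latent TGF-beta itself and belongs to the same family of matrix proteins. Its signals were 9.92, 10.33, 9.93 and 9.62 in HdhQ111/Q111 tumours, against 9.74, 9.75, 10.19 and 9.27 in HdhQ7/Q7 tumours. It had the widest spread among the 10 genes, with a pooled SD within genotype of 0.333, against a median of 0.159 over all probe sets. The log2 fold change was 0.21 with a standard error of 0.21 (limma adjusted p = 0.806, exact permutation p = 0.371). It was 0.059 without HdhQ7/Q7 replicate 4 and 0.089 without HdhQ111/Q111 replicate 2, but 0.36 without HdhQ7/Q7 replicate 3 and 0.32 without HdhQ111/Q111 replicate 4.

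Among the receptors, Tgfbr1, the type I kinase, had signals of 9.86, 9.83, 9.84 and 9.90 in HdhQ111/Q111 tumours, against 9.73, 10.09, 9.91 and 9.83 in HdhQ7/Q7 tumours. Both the highest and the lowest value came from HdhQ7/Q7 tumours. Tgfbr1 had a log2 fold change of -0.033 with a standard error of 0.085 (limma adjusted p = 0.937), and of 0.035 without HdhQ7/Q7 replicate 2, the tumour with the highest value.

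Tgfbr2, the type II kinase that binds the ligand first, had signals of 10.06, 10.27, 9.98 and 10.30 in HdhQ111/Q111 tumours, against 10.07, 9.77, 10.12 and 9.79 in HdhQ7/Q7 tumours. HdhQ111/Q111 tumours 2 and 4 were above all HdhQ7/Q7 tumours, and HdhQ7/Q7 tumours 2 and 4 were below all HdhQ111/Q111 tumours. The log2 fold change was 0.22 with a standard error of 0.11, a limma adjusted p of 0.679 and an exact permutation p of 0.171.

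Tgfbr3, or betaglycan, is the co-receptor that presents ligand, Tgfb2 above all, to the type II receptor. Its signals were 9.84, 9.94, 9.86 and 9.89 in HdhQ111/Q111 tumours, against 9.73, 9.63, 9.87 and 9.44 in HdhQ7/Q7 tumours. HdhQ7/Q7 tumour 3 was level with the HdhQ111/Q111 tumours, and the other 3 HdhQ7/Q7 tumours lay below them. The mean was 9.88 ± 0.04 in HdhQ111/Q111 and 9.66 ± 0.18 in HdhQ7/Q7 tumours (SD, n = 4 each), a 1.16-fold difference, or 0.22 on the log2 scale with a 95% interval of 0.00057 to 0.43.

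The unadjusted limma p of Tgfbr3 was 0.0495, the adjusted p was 0.630 and the exact permutation p was 0.0857, where the smallest that 4 against 4 allows is 0.0286. The unadjusted p was above 0.05 with the methods' t-test, array weights, quantile normalization, centring or a replicate block (0.0837 with the block). It was also above 0.05, at 0.0600 to 0.115, in 7 of the 8 fits with 1 tumour left out, and was 0.0134 without HdhQ7/Q7 replicate 3. The unadjusted limma p stayed under 0.05 with robust fitting on a variance trend (0.0438) and without the dimmest 40% of probe sets (0.0494). With single-symbol probe sets, each gene once, it was 0.0419. The adjusted p in these settings was 0.641, 0.605 and 0.573. The log2 fold change was 0.14 without HdhQ7/Q7 replicate 4. The gene lies on chromosome 5, the chromosome of Htt, but its distance from Htt was not examined. Sharing the chromosome does not place it in the DNA next to the altered allele. A part of that DNA in its difference was not tested.

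Smad7 competes with SMAD2 and SMAD3 for the type I receptor, recruits ubiquitin ligases to it and is itself induced by TGF-beta. Its signals were 9.07, 9.16, 8.91 and 8.92 in HdhQ111/Q111 tumours, against 8.95, 8.94, 9.18 and 8.91 in HdhQ7/Q7 tumours. One HdhQ7/Q7 tumour, replicate 3, held the highest value, and the other 3 lay at the low end. The difference was 0.021 on the log2 scale with a standard error of 0.091 (limma adjusted p = 0.968). It was -0.035 after quantile normalization, -0.047 with arrays centred, -0.028 without HdhQ111/Q111 replicate 2 and -0.0064 without HdhQ7/Q7 replicate 4.

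The 95% intervals bound how large a difference these 8 tumours leave room for, gene by gene and without adjustment for the number of genes. For 8 of the 10 genes the interval lay within 1.5-fold in both directions. The upper end reached 1.54-fold for Tgfb2 and 1.61-fold for Ltbp2.

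**Figure D2:**
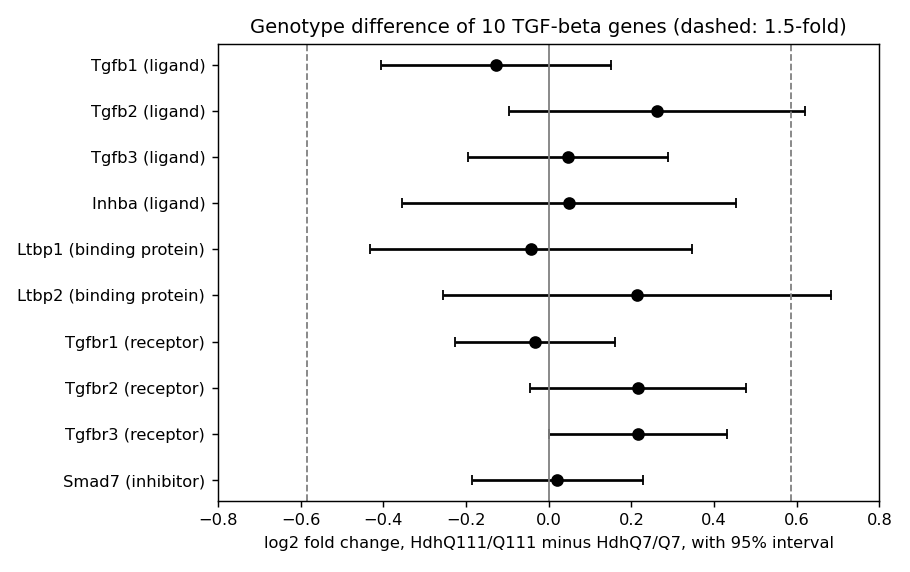
Log2 fold change (x axis, HdhQ111/Q111 minus HdhQ7/Q7) of each of the 10 genes with its 95% interval from limma (bars, 4 tumours each). The dashed lines mark 1.5-fold, which only the intervals of Tgfb2 and Ltbp2 reach.

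The tumours of a genotype did not spread alike for every gene. The SD in HdhQ111/Q111 tumours was 0.197 times that in HdhQ7/Q7 tumours for Tgfbr1, 0.236 times for Tgfbr3 and 0.394 times for Tgfb3, and between 0.779 and 1.37 times for the others. A ratio under 0.4 was thus present in 3 of 10 genes and in 9.21% of all probe sets, where the median ratio was 1.01. Tgfb3 lay just under this limit, so the count depends on where the limit was set. Ratios under 0.25, as for Tgfbr1 and Tgfbr3, were present in 2.73% of all probe sets. The difference in spread was not tested.

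Some tumours were high or low for many of the 10 genes at once. The number of genes above their own mean over the 8 tumours was 5, 7, 3 and 6 in HdhQ111/Q111 tumours 1 to 4, against 5, 1, 9 and 2 in HdhQ7/Q7 tumours 1 to 4. The low HdhQ7/Q7 tumours 2 and 4 were those with the lowest Tgfb2, Tgfbr2 and Tgfbr3.

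**Figure D3:**
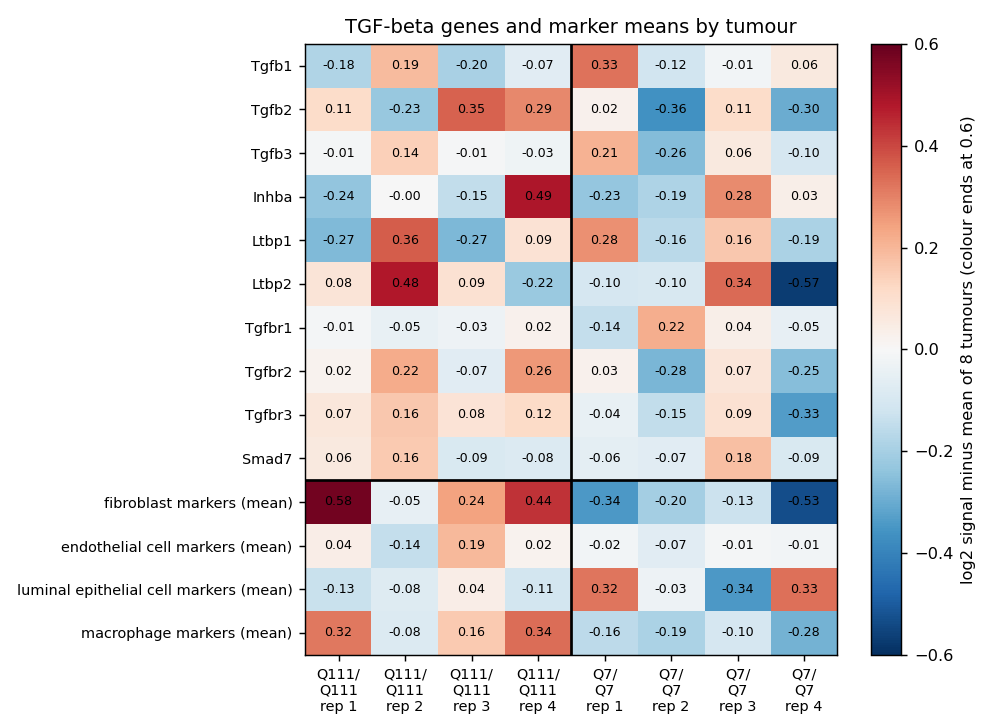
Log2 signal minus the mean of the 8 tumours (colour and printed value) for the 10 TGF-beta genes and, under the line, for the mean of 4 marker lists; columns are HdhQ111/Q111 tumours 1 to 4, then HdhQ7/Q7 tumours 1 to 4. HdhQ7/Q7 tumour 3 is above the mean for 9 of the 10 genes, whereas the fibroblast markers are below their mean in all HdhQ7/Q7 tumours and in HdhQ111/Q111 tumour 2.

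Of 45 pairs among the 10 genes, 32 had a positive Pearson r over the 8 tumours, 6 had an exact permutation p under 0.05, and none had an adjusted p under 0.05 for r or for rho. The receptors Tgfbr2 and Tgfbr3 had the highest r, 0.84, with a Spearman rho of 0.86. Their exact permutation p was 0.00501 for r, or 0.159 after adjustment, and 0.0107 for rho, or 0.346 after adjustment. Without HdhQ7/Q7 tumours 2 and 4, the 2 farthest from the median of Tgfbr2, r was 0.57, so the height of the relation rests on those tumours.

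Tgfb1 and its carrier Ltbp1 had an r of 0.80 and a rho of 0.83 over the 8 tumours, with exact permutation p-values of 0.0167 and 0.0154, or 0.174 and 0.346 after adjustment. Both were high in HdhQ111/Q111 tumour 2 and HdhQ7/Q7 tumour 1, and without these 2 tumours r was 0.50. With each tumour set against its genotype mean, r was 0.83 for this pair and 0.75 for Tgfbr2 with Tgfbr3. Ltbp2 and Smad7 had an r of 0.82 and a rho of 0.71 (exact permutation p = 0.00707 and 0.0576, adjusted 0.159 and 0.576). Without HdhQ111/Q111 tumour 2 and HdhQ7/Q7 tumour 4, the 2 farthest from the median of Ltbp2, r was 0.83. HdhQ7/Q7 tumour 3, high for both genes (Ltbp2 10.19, Smad7 9.18), stayed in that value, so its weight in the relation was not examined. Tgfb3 and Tgfbr1 ran opposite ways at an r of -0.82 and a rho of -0.50 (exact permutation p = 0.0193 and 0.216, adjusted 0.174 and 0.576), but r was 0.06 without HdhQ7/Q7 tumours 1 and 2.

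The fibroblast markers, which differed between the genotypes, were set beside each of the 10 genes over the 8 tumours. The highest r was that of Tgfbr3, at 0.69 with a rho of 0.62 (exact permutation p = 0.0541 and 0.115, adjusted over the 10 genes 0.331 and 0.383). Without HdhQ111/Q111 tumours 1 and 4 it was 0.78, and within genotypes, as deviations from the genotype means, 0.29. For Tgfb2 r was 0.68 and rho 0.64 (exact permutation p = 0.0663 and 0.0962, adjusted 0.331 and 0.383), with 0.65 without those 2 tumours and 0.53 within genotypes. Tgfb1 had a negative r, -0.62, and a rho of -0.62 (exact permutation p = 0.0997 and 0.115, adjusted 0.332 and 0.383), with -0.52 without the 2 tumours and -0.61 within genotypes. None of the 10 genes had an adjusted p under 0.05, and the part of stromal cells in the differences was not tested.

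The genes whose signals followed each ligand most closely were taken as the 3 with the highest Pearson r among 14859 other genes, over 8 tumours, as a description without a test. For Tgfb1 they were Lrp10, a receptor of the lipoprotein receptor family, at an r of 0.97, Samd4b at 0.96 and the olfactory receptor gene Olfr937 at 0.96. For Tgfb2 they were Cyp1b1, a cytochrome P450 enzyme, at 0.97, the lymphatic growth factor Vegfd at 0.97 and Krtcap2 at 0.97. For Tgfb3 they were the annexin Anxa11 at 0.97, Dtnbp1 at 0.96 and Wwtr1, the coactivator TAZ of the Hippo pathway, at 0.96. An r above 0.9 was reached by 18 genes for Tgfb1, 70 for Tgfb2 and 20 for Tgfb3. How many of 14859 genes reach such an r by chance over 8 tumours was not worked out. The genes named are therefore not shown to vary with a ligand beyond chance.

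Around these 10 genes, 108 of 124 listed genes of the pathway had a single-symbol probe set, in 7 lists by role. The lists were drawn up with earlier results of these data known, so their counts describe these tumours and are not independent evidence. Of the 108, 6 were higher and 1 was lower in HdhQ111/Q111 tumours past the study's thresholds, against 1.36% of all probe sets, and 12 had an unadjusted p of at most 0.05, against 7.88% of all probe sets. None had an adjusted p under 0.05 (limma), and 7 did not overlap between genotypes, against 4.43% of all probe sets, so these last counts lie near the background. The 7 genes past the thresholds were in 3 lists, the secreted antagonists, the latency and activation genes and the genes induced by TGF-beta. The count was 11 without HdhQ111/Q111 replicate 1 and 4 without HdhQ111/Q111 replicate 4.

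**Figure D4:**
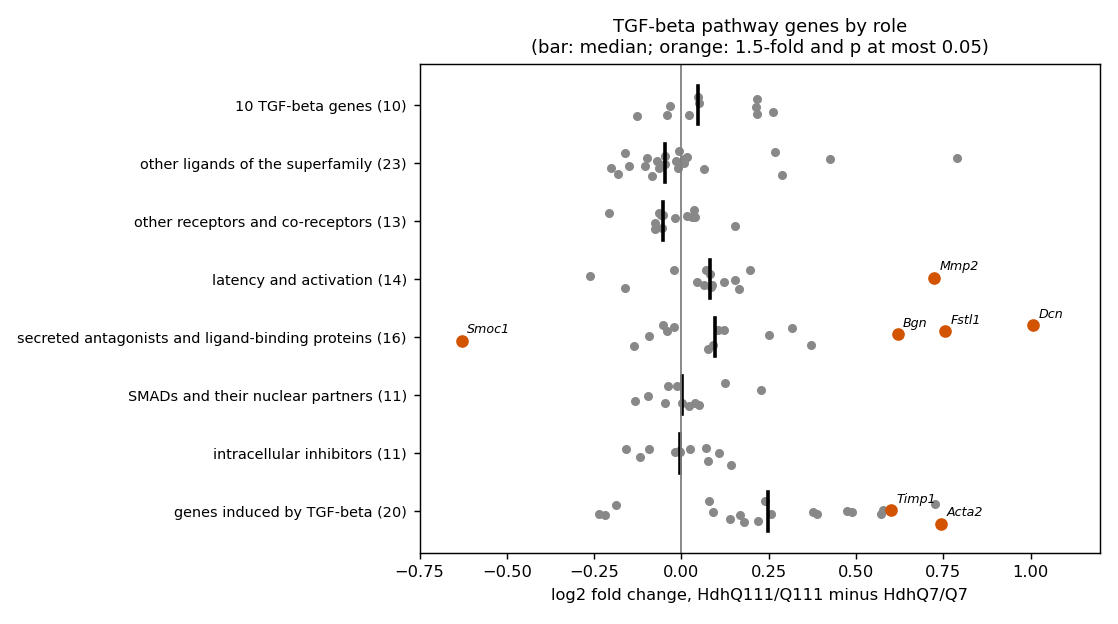
Log2 fold change (x axis, HdhQ111/Q111 minus HdhQ7/Q7) of the 10 TGF-beta genes and of 108 other pathway genes in 7 lists (number of genes in brackets); each point is a gene, the black bar is the median of the list, and orange points passed both thresholds. The 7 orange genes are in 3 lists, 6 on the right and Smoc1 on the left.

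The secreted antagonists and ligand-binding proteins had a median log2 fold change of 0.097 over 16 genes, with 10 positive and 6 negative. Dcn, Bgn and Fstl1 rose at the study's thresholds and Smoc1 fell. Dcn encodes decorin, a small proteoglycan that binds TGF-beta. Its signals were 11.95, 11.83, 11.27 and 11.56 in HdhQ111/Q111 tumours, against 10.30, 11.03, 10.93 and 10.34 in HdhQ7/Q7 tumours, a 2.01-fold difference (limma adjusted p = 0.370, exact permutation p = 0.0286). Bgn, for the related biglycan, had 11.76, 11.86, 11.63 and 11.94 in HdhQ111/Q111 tumours, against 11.17, 11.11, 11.52 and 10.92 in HdhQ7/Q7 tumours. In both genes all HdhQ111/Q111 tumours were above all HdhQ7/Q7 tumours.

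Fstl1, a secreted glycoprotein of the follistatin family, had 10.06, 9.89, 9.98 and 10.48 in HdhQ111/Q111 tumours, against 9.30, 9.38, 9.77 and 8.95 in HdhQ7/Q7 tumours, a 1.69-fold difference (limma adjusted p = 0.427, exact permutation p = 0.0286). Smoc1, a matricellular protein known to antagonise BMP signals in Xenopus, had 10.12, 10.53, 9.64 and 9.66 in HdhQ111/Q111 tumours, against 10.53, 10.44, 10.63 and 10.86 in HdhQ7/Q7 tumours, so HdhQ111/Q111 tumour 2 overlapped with the HdhQ7/Q7 tumours. Its difference was 1.55-fold, lower in HdhQ111/Q111 tumours (limma adjusted p = 0.550, exact permutation p = 0.0571). Bgn, at 1.54-fold with an adjusted p of 0.370, was under 1.5-fold without HdhQ111/Q111 replicate 4 (log2 fold change 0.57), without HdhQ7/Q7 replicate 4 (0.53) or with arrays centred (0.55). Smoc1 was under it without HdhQ111/Q111 replicate 3 (-0.51), HdhQ111/Q111 replicate 4 (-0.52) or HdhQ7/Q7 replicate 4 (-0.55).

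The latency and activation genes had a median log2 fold change of 0.083 over 14 genes. Of these, 11 were positive, beside 13165 of all 23332 probe sets. Mmp2, a gelatinase able to release latent TGF-beta, was the 1 gene of the list past the thresholds. Its signals were 10.16, 10.57, 9.93 and 10.57 in HdhQ111/Q111 tumours, against 9.59, 9.74, 9.62 and 9.39 in HdhQ7/Q7 tumours. The genotypes did not overlap, and the difference was 1.65-fold (limma adjusted p = 0.370, exact permutation p = 0.0286).

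The genes induced by TGF-beta were a list of matrix, cytoskeletal and transcription factor genes. Their median log2 fold change was 0.25 over 20 genes, of which 17 were positive, beside 13165 of all 23332 probe sets. The signs within this list are not given for centred arrays. At an unadjusted p of at most 0.05 there were 7 genes, against 7.88% of all probe sets. All 7 were higher in HdhQ111/Q111 tumours, as were 66.0% of all probe sets at that p. Since this list too was drawn up with earlier results of these data known, its counts are no test of it. Past both thresholds were Acta2, the smooth muscle actin of activated fibroblasts and myoepithelial cells, and Timp1, an inhibitor of metalloproteinases. Acta2 had 10.36, 11.59, 11.05 and 10.70 in HdhQ111/Q111 tumours, against 9.87, 10.22, 10.76 and 9.89 in HdhQ7/Q7 tumours, a 1.67-fold difference (limma adjusted p = 0.607, exact permutation p = 0.0857). Timp1 had 9.32, 9.002, 9.54 and 9.99 in HdhQ111/Q111 tumours, against 8.73, 8.73, 9.25 and 8.74 in HdhQ7/Q7 tumours, a 1.52-fold difference (limma adjusted p = 0.592, exact permutation p = 0.0571). In both genes HdhQ7/Q7 tumour 3 was level with HdhQ111/Q111 tumours.

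Acta2 was outside the thresholds without HdhQ111/Q111 replicate 2 (log2 fold change 0.52), HdhQ111/Q111 replicate 3 (0.70), HdhQ7/Q7 replicate 1 (0.64), HdhQ7/Q7 replicate 2 (0.76) or HdhQ7/Q7 replicate 4 (0.64), and with the methods' t-test. Timp1 was outside them without HdhQ111/Q111 replicate 3 (0.57), HdhQ111/Q111 replicate 4 (0.42), HdhQ7/Q7 replicate 1 (0.56), HdhQ7/Q7 replicate 2 (0.55) or HdhQ7/Q7 replicate 4 (0.56), and with array weights, quantile normalization or centring. In 3 of the 20 genes of the list, against 4.43% of all probe sets, the genotypes did not overlap, the collagen genes Col1a1 and Col1a2 and the transcription factor gene Zeb1, which were picked after their values were seen. Their log2 fold changes were 0.49, 0.58 and 0.24. Mmp2, Bgn, Dcn, Fstl1, Smoc1 and Acta2 are among the gene names that could be read in a picture of the study's clustering of genes called in these same tumours, so they are not independent evidence of a direction. Many of the genes named here are also made by fibroblasts, whose markers, like those of macrophages, did not overlap between the genotypes. The mean of 7 basal and myoepithelial markers was 7.83 to 8.71 in HdhQ111/Q111 and 7.75 to 7.89 in HdhQ7/Q7 tumours, and all 7 had a higher mean in HdhQ111/Q111 tumours. The mean of 6 adipocyte markers was 9.66, 6.49, 8.29 and 7.57 in HdhQ111/Q111 tumours 1 to 4 and 6.31 to 7.04 in HdhQ7/Q7 tumours, and all 6 had a higher mean in HdhQ111/Q111 tumours, by 1.40 on the log2 scale for the list. This was the largest difference among the 10 marker lists, although HdhQ111/Q111 tumour 2 lay within the range of the HdhQ7/Q7 tumours. The part of these cell types in these differences was not tested.

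In the remaining lists no gene passed the thresholds. The 23 other ligands of the superfamily had a median log2 fold change of -0.046, with 8 positive and 15 negative. The bone morphogenetic protein Bmp7 had 6.52, 6.81, 6.85 and 7.52 in HdhQ111/Q111 tumours, against 6.22, 6.67, 6.68 and 6.43 in HdhQ7/Q7 tumours (log2 fold change 0.42, limma adjusted p = 0.652). Mstn encodes myostatin, the ligand by which skeletal muscle limits its own growth. Its signals were 4.88, 4.84, 6.63 and 6.47 in HdhQ111/Q111 tumours, against 4.97, 4.83, 4.83 and 5.03 in HdhQ7/Q7 tumours, a log2 fold change of 0.79 with a standard error of 0.42 (limma adjusted p = 0.676). Only HdhQ111/Q111 tumours 3 and 4 were high. The mean of 5 skeletal muscle markers was 9.42 and 9.35 in those 2 tumours, 6.47 and 6.52 in HdhQ111/Q111 tumours 1 and 2, and 6.68 to 7.90 in HdhQ7/Q7 tumours. The part of muscle in the piece of tumour was not tested.

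**Figure D5:**
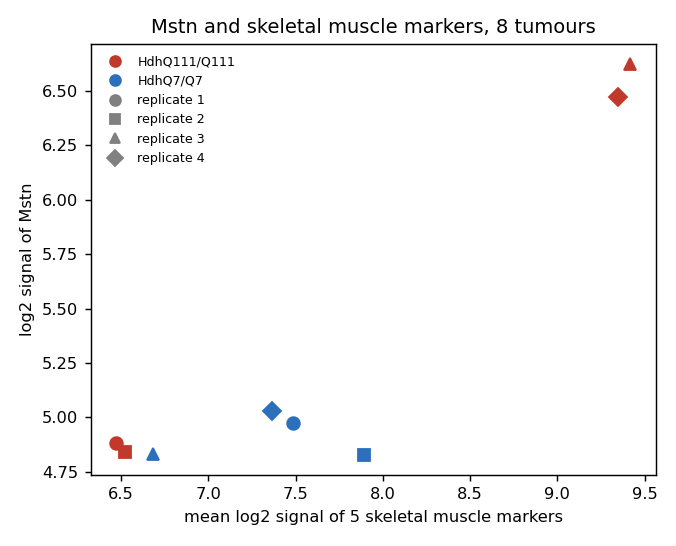
Log2 signal of Mstn (y axis) against the mean log2 signal of 5 skeletal muscle markers (x axis) in 4 HdhQ111/Q111 (red) and 4 HdhQ7/Q7 (blue) tumours, with marker shapes for the replicate number. HdhQ111/Q111 tumours 3 and 4 stand apart on both axes, with Mstn at 6.63 and 6.47 against 5.03 at most in the other tumours.

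The 13 other receptors and co-receptors had a median log2 fold change of -0.052 and ran from -0.21 for Bambi, the pseudoreceptor that blocks type I receptors, to 0.15 for Acvr2a, an activin type II receptor. The adjusted p was 0.758 for Bambi and 0.720 for Acvr2a (limma). The 11 SMADs and nuclear partners had a median of 0.00071, with -0.13 for Smad9, a SMAD of the BMP branch, and 0.23 for Tgif2, a corepressor. The 11 intracellular inhibitors had a median of -0.0048, with 0.14 for Skil, the repressor SnoN, and -0.16 for Nedd4l, a ubiquitin ligase for receptors and SMADs. None of these 3 lists had a gene with an unadjusted p of at most 0.05, and their differences ran from -0.21 to 0.23 on the log2 scale.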

How the data were processed

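RNA of 8 tumours was measured on Affymetrix Mouse Exon 1.0 ST arrays. The values deposited are log2 signals per probe set, which the authors made, per the labels, with the core meta-probeset file of the mouse build mm9. Their normalization was not given in the sources used here; the study's methods name quantile normalization and antigenomic background correction for its own gene analysis. They were used as deposited. The number of arrays limits the precision. Probe sets were named from the platform annotation, with 14996 of 23332 annotated to a single symbol, 1019 to several and 7317 to none. The row with the highest mean stood for a gene.

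Genotypes were compared over all probe sets with limma 3.58.1 in R 4.3.3 (two-sided, moderated variance, Benjamini-Hochberg adjustment), and single genes also with an exact permutation test over 70 labellings. Correlations had two-sided exact permutation p-values over pairings. Named were the 10 genes, in each pathway list the genes past the thresholds or else the 2 with the smallest p, and for each TGF-beta isoform the 3 most alike genes. The genes, lists and tests were chosen with earlier results of these data known. Other settings were quantile normalization, centring of arrays, array weights, robust fitting on a variance trend, the methods' t-test, a filter on dim probe sets, a replicate block, single-symbol probe sets, no fold threshold and leaving out each tumour. Scripts were tested on simulated data. Python 3.11.15 with matplotlib 3.10.9 drew the plots.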

Additional observations from a re-analysis of the deposited data

Results flagged for a closer look

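In all, 70 groups of 4 tumours were examined for a single tumour far from the other 3, of which 20 were of the 10 TGF-beta genes. Of the 70, 4 held one, and chance gives about 1 in 20 for independent groups. These groups share the same 8 tumours and include 15 pathway genes named by their calls or p-values, so they are not independent. Tgfb3 was 11.59 in HdhQ111/Q111 replicate 2, with 11.42 to 11.44 in the other HdhQ111/Q111 tumours. Smad7 was 9.18 in HdhQ7/Q7 replicate 3, with 8.91 to 8.95 in the other HdhQ7/Q7 tumours. Timp1 was 9.25 in the same tumour, with 8.73 to 8.74 in the others of its genotype. The endothelial marker mean was 7.72 in HdhQ7/Q7 replicate 2, with 7.77 to 7.78 in the others.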

How the results depend on the processing

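In every alternative run, 0 of the 10 genes passed the study's thresholds and 0 had an adjusted p under 0.05, and 1 had an unadjusted p of at most 0.05 with no fold threshold. Signs turned for Smad7 (-0.035) after quantile normalization, and for Tgfb3 (-0.020), Inhba (-0.019) and Smad7 (-0.047) with arrays centred on their medians. With 1 tumour left out, the log2 fold change ran from -0.031 to 0.12 for Tgfb3, from -0.10 to 0.15 for Inhba, from -0.17 to 0.042 for Ltbp1, from 0.059 to 0.36 for Ltbp2, from -0.086 to 0.035 for Tgfbr1 and from -0.028 to 0.084 for Smad7, and the median of the 10 genes from 0.018 to 0.12. Other pathway genes past the thresholds then numbered 4 to 11, and all probe sets 271 to 459, instead of 317. All probe sets past the thresholds numbered 184 without the dimmest 40% and 181 with each single-symbol gene once. They split into 238 higher and 79 lower, but 166 and 121 with arrays centred. The correlation with the fibroblast marker mean was 0.11 for Tgfb3 and -0.059 for Inhba without the 2 farthest tumours, against -0.00035 and 0.14 with all 8. With a replicate block 0 of the 10 genes and 332 probe sets passed the thresholds, no gene of the 10 had an unadjusted p of at most 0.05 (Tgfbr3 0.0837), and the pairing was not taken up because deviations of tumours of the same number correlated at -0.19 to 0.03 across probe sets. Adjusted p-values under 0.05 numbered 3 over all probe sets, 0 with the block or the methods' t-test and 5 with single-symbol genes. None of the 10 genes had a second single-symbol probe set, so that alternative gave no value. With 4 arrays per genotype, a 1.5-fold difference lay within the 95% interval of Tgfb2 and Ltbp2. The causes were not tested.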
